A study of Rattus norvegicus with 6 samples.

Results

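The 36 genes described here mark the cells that line and populate the liver sinusoid: 12 for sinusoidal endothelial cells, 12 for Kupffer cells and other macrophages, and 12 for hepatic stellate cells and their matrix. They were listed by name as cell type markers, with earlier results of these data known. All 36 were measured, among 22093 genes in all, each through its brightest probe set with 1 gene symbol. Hepatocytes make up most of the mass of the liver, and these markers follow the smaller populations beside them.

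Sinusoidal endothelial cells form a fenestrated lining without a continuous basement membrane, and clear waste macromolecules and immune complexes from blood through scavenger and Fc receptors. Kupffer cells are the resident macrophages inside the sinusoid, where complement and scavenger receptors let them capture particles and old red cells. Stellate cells lie between the endothelium and hepatocytes, store vitamin A as retinyl esters, and on injury become matrix-producing myofibroblasts.

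Liver RNA was taken from adult Sprague Dawley rats, 3 in the group STZ-O and 3 in the group CB-O, each on 1 array. The fathers of STZ-O rats had been made hyperglycaemic by intraperitoneal streptozotocin, a toxin of pancreatic beta cells. Those of CB-O rats were injected with citrate buffer and had normal blood glucose. In both groups the mothers were normal females, the offspring were on chow and were killed fed, and 1 rat per litter was taken with no distinction of sex. The labels name no treatment of the offspring themselves, so the groups are set apart by what the father received. The labels do not give the sex of each array, the offspring's own glucose or the number of fathers. In whole liver RNA, fewer cells of a type and less RNA per cell cannot be told apart.

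Values are log2 expression, 1 per probe set and array, so a difference of 1 is a change of 2-fold. Of 11 measured hepatocyte markers, 10 averaged above 8.26, the 95th percentile of the negative control probe sets, with Alb (albumin) at 13.14, 13.21 and 13.18 in STZ-O and 13.09, 13.16 and 13.15 in CB-O. The same was true of 6 endothelial, 6 Kupffer and 1 stellate marker, while 0 of 8 markers of fat, pancreas and muscle reached that brightness. Lum, at 4.21 to 4.53, was the 1 member below the negative control median of 5.51. Before any comparison, 1 array stood apart on these genes. STZ-O replicate 3 was the lowest of the 6 for 22 of the 36 members, where it was the lowest for 19.7% of all genes.

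No member separated the groups by the test across all genes. In limma, 0 of the 36 had an adjusted p under 0.05, against 0.0% of all genes, and the smallest among members was 0.863. At an unadjusted p under 0.05 there was 1 member, the endothelial gene Stab2, lower in STZ-O, where 5.68% of all genes passed that mark, 2.48% lower and 3.2% higher. STZ-O and CB-O arrays did not overlap for 2 members, Stab2 and Lum, both with STZ-O below, against 10.1% of all genes, 4.93% with STZ-O below and 5.2% with it above. Both counts are near or below the background. What varied among these livers were the animals within a group, as the plot of each marker's deviation by array shows.

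**Figure D1:**
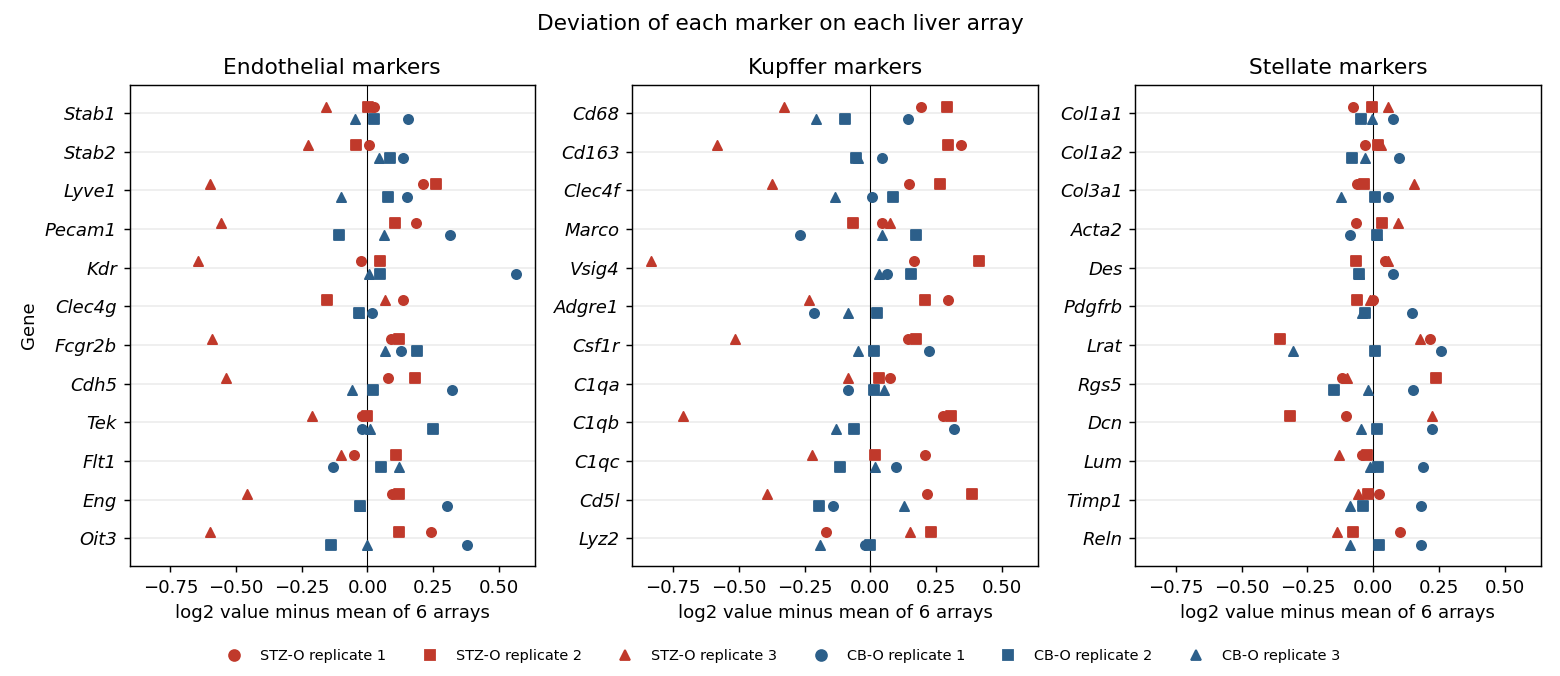
Each point is the log2 value of a marker on 1 array minus the mean of that marker over 6 arrays (x axis), with genes down the y axis; red points are STZ-O, drawn above the blue CB-O points, and the shape gives the replicate. STZ-O replicate 3 (red triangles) is the lowest array for 10 of 12 endothelial and 10 of 12 Kupffer markers and for 2 of 12 stellate markers.

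Among endothelial genes, the receptors of blood-borne waste and immune complexes were described in turn. Stab2, a scavenger receptor for hyaluronan, was at 7.92, 7.87 and 7.69 in STZ-O and 8.05, 8.0 and 7.96 in CB-O. The 2 groups did not overlap, with STZ-O lower by a mean of -0.18 ± 0.07 (SE), and the limma adjusted p was 0.863. Without STZ-O replicate 3 the difference was -0.11, and the related scavenger receptor gene Stab1 was at -0.09 ± 0.08, or -0.03 without that array.

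Lyve1, a hyaluronan receptor, had 9.48, 9.53 and 8.67 in STZ-O and 9.42, 9.35 and 9.17 in CB-O. Replicates 1 and 2 of STZ-O were the highest of the 6 and replicate 3 the lowest, so the difference of -0.09 ± 0.21 (SE) hides a spread within the group, and it was 0.20 without replicate 3. Fcgr2b, the inhibitory Fc gamma receptor that takes up immune complexes, had 9.93, 9.96 and 9.25 in STZ-O and 9.97, 10.03 and 9.91 in CB-O. The first 2 STZ-O arrays lay within the CB-O range and replicate 3 lay below all of them; the difference was -0.25 ± 0.18, and -0.02 without replicate 3. Clec4g, a C-type lectin of sinusoidal endothelium, did not share this: it was at 7.97, 7.68 and 7.90 in STZ-O and 7.85, 7.80 and 7.80 in CB-O, with replicate 3 inside the STZ-O range.

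The angiogenic receptors came next. Kdr, the main VEGF receptor, had 9.95, 10.02 and 9.33 in STZ-O and 10.54, 10.02 and 9.98 in CB-O. It was drawn apart from both ends, with CB-O replicate 1 high and STZ-O replicate 3 low; the difference of -0.41 ± 0.21 (SE, 1.33-fold, limma adjusted p = 0.912) was -0.19 without STZ-O replicate 3. Tek, the angiopoietin receptor, had 7.61, 7.63 and 7.42 in STZ-O and 7.61, 7.88 and 7.64 in CB-O, a difference of -0.15 ± 0.09. The groups overlapped for both genes. Flt1, the other VEGF receptor, was at -0.02 ± 0.09, and its dimmer probe set at -0.08; on STZ-O replicate 3 the brighter one lay 0.11 below the mean of the other 5 arrays and the dimmer one 0.35 below, so the probe sets of this gene disagree in size. Of their ligands, Vegfa lay between 9.01 and 9.06 on all 6 arrays. Vegfb, a ligand of Flt1, had 7.61, 7.70 and 7.42 in STZ-O and 7.82, 7.68 and 7.53 in CB-O, and so, like Kdr, was lowest on STZ-O replicate 3 and highest on CB-O replicate 1.

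Junctional and surface genes of endothelium were all low on STZ-O replicate 3. Against the mean of the other 5 arrays that animal was at -0.67 for Pecam1 (CD31), -0.65 for Cdh5 (VE-cadherin, the adherens junction protein), -0.55 for Eng (endoglin, a co-receptor for BMP9) and -0.72 for Oit3, a gene of sinusoidal endothelium. Between groups these 4 genes differed by -0.18 ± 0.20, -0.18 ± 0.19, -0.16 ± 0.16 and -0.16 ± 0.23 (SE). Without STZ-O replicate 3 the values were 0.06, 0.04, 0.03 and 0.10. Thus 11 of 12 endothelial markers were lower in STZ-O with all arrays, with a median of -0.161, where 51.9% of all genes were lower with a median of -0.004; without that array 5 of 12 were lower, with a median of 0.014.

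The size of the deficit on STZ-O replicate 3 varied among endothelial markers. The 6 that averaged above 8.26 (Lyve1, Pecam1, Kdr, Fcgr2b, Cdh5 and Eng) were at -0.78 to -0.55 against the mean of the other arrays. Of the 6 dimmer ones Oit3 was at -0.72 and the others between -0.27 (Stab2) and 0.08 (Clec4g). In all, 7 of 12 endothelial markers were more than 0.5 below the other arrays there, as were 0.579% of all genes. All genes are a dimmer set, with 2911 of 22093 averaging above 8.26 against 6 of these 12, so the 2 shares are not of like brightness.

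Among Kupffer markers the picture on STZ-O replicate 3 was the same, while the other STZ-O arrays stood high. The complement and scavenger receptors are given first. Vsig4, the complement receptor CRIg that captures opsonised particles, had 9.20, 9.45 and 8.20 in STZ-O and 9.10, 9.19 and 9.07 in CB-O. STZ-O thus held both the highest and the lowest of the 6 arrays, and replicate 3 lay at -1.0 against the mean of the others, a deficit of 2.0-fold. Cd163, the haemoglobin-haptoglobin scavenger receptor, had 8.34, 8.29 and 7.41 in STZ-O and 8.04, 7.94 and 7.95 in CB-O. Clec4f, a lectin found on Kupffer cells in rodents, had 9.49, 9.61 and 8.97 in STZ-O and 9.35, 9.43 and 9.21 in CB-O. For Cd163 and Clec4f as well, STZ-O replicates 1 and 2 lay above every CB-O array and replicate 3 below every one. Differences between groups were therefore small, at -0.17 ± 0.28, 0.04 ± 0.22 and 0.03 ± 0.16 (SE) for Vsig4, Cd163 and Clec4f.

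Marco, another scavenger receptor of macrophages, ran otherwise: it was at 7.67 on STZ-O replicate 3, inside the range of the other arrays (7.33 to 7.77). Lyz2, lysozyme of macrophages and granulocytes, had 8.0, 8.40 and 8.32 in STZ-O and 8.15, 8.17 and 7.98 in CB-O, again with replicate 3 not low. The level of neutrophil and monocyte markers, the mean deviation over 12 genes, was 0.013, 0.001 and 0.007 in STZ-O and 0.044, -0.062 and -0.004 in CB-O. That mean joins genes that went both ways on STZ-O replicate 3, with 7 of 12 below the mean of the others. The monocyte receptor gene Ccr2 was at -0.52 and the neutrophil gene S100a9 at 0.62 against that mean. S100a9 averaged 5.46, below the negative control median of 5.51, so its value is not read.

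Surface receptors and secreted products of macrophages were lower on STZ-O replicate 3 by varying amounts. Csf1r, the receptor for the macrophage growth factor CSF1, had 8.44, 8.47 and 7.78 in STZ-O and 8.52, 8.31 and 8.25 in CB-O. Its ligand gene Csf1 was at 7.21, 7.16 and 7.19 in STZ-O and 7.31, 7.13 and 7.33 in CB-O, with no low value on replicate 3. Adgre1, which encodes F4/80, had 7.41, 7.32 and 6.88 in STZ-O and 6.90, 7.14 and 7.03 in CB-O. Cd5l, a secreted macrophage protein, had 8.62, 8.79 and 8.01 in STZ-O and 8.26, 8.21 and 8.53 in CB-O. For Adgre1 and Cd5l the first 2 STZ-O arrays were the highest of the 6. The lysosomal gene Cd68 was at -0.39 on STZ-O replicate 3 against the mean of the others.

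The 3 chains of complement C1q, made in liver mainly by macrophages, are encoded side by side with 0 protein-coding genes between neighbours, but did not vary alike. C1qb had 8.87, 8.90 and 7.88 in STZ-O and 8.91, 8.53 and 8.46 in CB-O. C1qa had 9.45, 9.41 and 9.29 in STZ-O and 9.29, 9.39 and 9.43 in CB-O. C1qc had 7.94, 7.75 and 7.51 in STZ-O and 7.83, 7.62 and 7.75 in CB-O. STZ-O replicate 3 was the lowest array for each (for C1qa level with CB-O replicate 1 to 2 decimals), at -0.86, -0.11 and -0.27 for C1qb, C1qa and C1qc against the mean of the others, so on the same array C1qb was much farther below than C1qa. Differences between groups were -0.09 ± 0.27, 0.01 ± 0.07 and 0.00 ± 0.11 (SE) in the same order.

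Promoters of 27 of the 36 members were found in RefSeq's annotation of the GRCr8 rat build. The 200 bases before the start of 6 of them are printed: the C1q neighbours that differed most, the Kupffer gene with the largest deficit, the endothelial genes Stab2 and Oit3, and Lrat, a stellate gene that was not low on STZ-O replicate 3. Each is given 5′ to 3′ on the gene's strand, in lower case. Capitals mark GAGGAA, or TTCCTC where it lies on the opposite strand. These letters stand in many sites of PU.1, an ETS-family factor of macrophages. The build of the array's own annotation is not given in the sources used here.
C1qb (GRCr8 chr5:154407828-154408027, minus strand): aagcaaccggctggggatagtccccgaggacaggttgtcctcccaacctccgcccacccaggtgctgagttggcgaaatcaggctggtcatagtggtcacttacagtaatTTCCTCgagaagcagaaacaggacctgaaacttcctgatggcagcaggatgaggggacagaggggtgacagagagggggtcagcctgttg
C1qa (GRCr8 chr5:154419934-154420133, minus strand): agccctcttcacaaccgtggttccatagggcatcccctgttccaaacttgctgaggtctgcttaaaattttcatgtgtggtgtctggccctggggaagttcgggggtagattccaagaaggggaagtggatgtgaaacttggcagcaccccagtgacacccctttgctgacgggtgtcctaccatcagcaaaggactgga
Vsig4 (GRCr8 chrX:65179709-65179908, minus strand): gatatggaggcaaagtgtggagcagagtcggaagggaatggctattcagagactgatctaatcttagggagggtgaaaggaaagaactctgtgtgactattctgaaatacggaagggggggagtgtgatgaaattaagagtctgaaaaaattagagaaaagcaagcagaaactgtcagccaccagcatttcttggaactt
Stab2 (GRCr8 chr7:23320563-23320762, minus strand): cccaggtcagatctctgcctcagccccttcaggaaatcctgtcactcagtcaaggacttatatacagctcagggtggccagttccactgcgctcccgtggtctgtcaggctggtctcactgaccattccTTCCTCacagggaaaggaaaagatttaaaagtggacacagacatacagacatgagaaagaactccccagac
Oit3 (GRCr8 chr20:27953684-27953883, minus strand): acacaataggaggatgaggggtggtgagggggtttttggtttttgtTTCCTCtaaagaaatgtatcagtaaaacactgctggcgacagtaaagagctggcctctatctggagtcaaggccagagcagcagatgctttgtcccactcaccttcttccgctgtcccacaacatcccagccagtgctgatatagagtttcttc
Lrat (GRCr8 chr2:170571213-170571412, minus strand): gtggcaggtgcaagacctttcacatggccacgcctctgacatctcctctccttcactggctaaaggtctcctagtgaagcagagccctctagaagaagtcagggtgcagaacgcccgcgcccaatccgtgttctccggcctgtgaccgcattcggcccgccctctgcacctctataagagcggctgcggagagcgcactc

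Within the 250 bases before the start, GAGGAA stood on either strand in 7 of 11 Kupffer, 5 of 8 endothelial and 2 of 8 stellate promoters, against 23.3% of 33469 rat promoters in the table. GAGGAA was in the C1qb window, and in neither the C1qa nor the Vsig4 window. Sites of PU.1 or other ETS-family factors with other letters would not match, so this does not show that such sites are absent. Each motif was searched by itself, so matches of different motifs may overlap. The GATA-type letters AGATAA stood in 2 Kupffer promoters (Clec4f and Adgre1) and in 0 of the others (10.3% of all), and the AP-1 letters TGANTCA in that of Cd68 alone (6.34% of all). The CArG box in its strict form CCWWWWWWGG (W being A or T), searched on both strands as were the others, was in 0 of the 27 (1.5% of all). Boxes with a C or G between the ends would not match, so this does not show that such boxes are absent. These matches describe letters and no binding was measured.

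**Figure D2:**
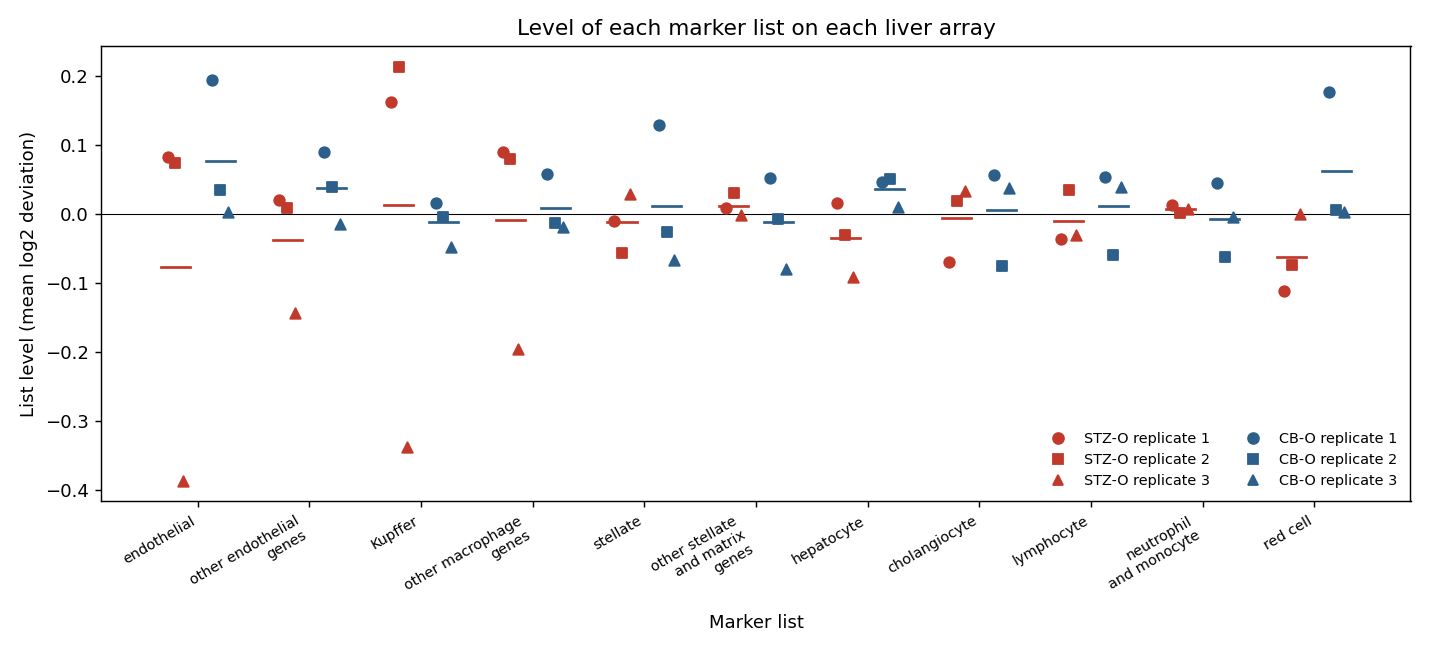
Each point is the level of a marker list on 1 array: the mean over its genes of the log2 value minus that gene's mean over 6 arrays (y axis), for 11 lists along the x axis, STZ-O (red) left of CB-O (blue), the short line being the group mean. The endothelial and Kupffer lists reach -0.386 and -0.338 on STZ-O replicate 3, and the stellate list 0.029.

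Of the 12 stellate markers 2, Reln and Lum, had their lowest value on STZ-O replicate 3. Lrat, the retinyl ester-forming enzyme that marks quiescent stellate cells, had 9.12, 8.55 and 9.08 in STZ-O and 9.16, 8.91 and 8.60 in CB-O. Its low arrays were STZ-O replicate 2 and CB-O replicate 3, and the groups overlapped across nearly their whole range (0.03 ± 0.18, SE). Reln, the secreted glycoprotein reelin, had 8.29, 8.11 and 8.05 in STZ-O and 8.37, 8.21 and 8.10 in CB-O, with replicate 3 of STZ-O at -0.17 against the mean of the others. Des, the intermediate filament desmin, had 6.23, 6.12 and 6.24 in STZ-O and 6.26, 6.13 and 6.13 in CB-O, a range of 0.14 over all 6 animals.

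Pdgfrb, the PDGF receptor of stellate cells and pericytes, had 7.32, 7.26 and 7.31 in STZ-O and 7.47, 7.29 and 7.28 in CB-O. It lies directly beside Csf1r in the rat annotation, yet on STZ-O replicate 3 Pdgfrb was at -0.01 and Csf1r at -0.62 against the mean of the other arrays. Dcn, the collagen-binding proteoglycan decorin, had 6.91, 6.70 and 7.24 in STZ-O and 7.24, 7.03 and 6.97 in CB-O. Here STZ-O replicate 3 shared the top value with CB-O replicate 1, the opposite of its place among endothelial genes, and the difference of -0.13 ± 0.14 (SE) was -0.27 without it. Lum, which encodes lumican, the proteoglycan gene next to Dcn, had 4.30, 4.32 and 4.21 in STZ-O and 4.53, 4.36 and 4.33 in CB-O, all below the negative control median; it stays in the counts of members and in the stellate level, but its own difference is not read.

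Genes of the fibrotic matrix and of contractile cells differed little between the groups. All stellate markers but Lrat averaged below 8.26, and RMA compresses differences of dim probe sets. Small differences here therefore do not show that the matrix was unchanged. The fibrillar collagens Col1a1, Col1a2 and Col3a1 differed by -0.02 ± 0.06, 0.01 ± 0.07 and 0.04 ± 0.08 (SE), and the other probe set of Col1a2 also gave 0.01. Acta2, the smooth muscle actin of activated stellate cells, was at 0.04 ± 0.07. Timp1, an inhibitor of matrix metalloproteinases, was at -0.03 ± 0.08, and Rgs5, a pericyte marker, at 0.01 ± 0.12. Of the 12 stellate markers 6 were higher and 6 lower (median -0.006), and 9 of 12 were lower without STZ-O replicate 3, with a median of -0.027. The most common high array was CB-O replicate 1, the highest for 8 of 12 stellate and 7 of 12 endothelial markers and for 18.3% of all genes. It was also the highest for 66.7% of red cell, 50.0% of cholangiocyte and 42.9% of ligand genes, and the red cell level was 0.177 on it, the top of the 6. Across arrays the stellate and red cell levels had r of 0.78 (rho 0.26); the part of red cells in the stellate values was not tested.

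As cell-type levels, the mean deviation of 12 markers per array, the endothelial list was at 0.082, 0.073 and -0.386 in STZ-O and 0.194, 0.035 and 0.002 in CB-O. The Kupffer list was at 0.162, 0.213 and -0.338 in STZ-O and 0.015, -0.004 and -0.048 in CB-O. The stellate list was at -0.010, -0.056 and 0.029 in STZ-O and 0.129, -0.026 and -0.067 in CB-O. STZ-O replicate 3 was the lowest animal for the first 2 lists by a wide margin and the second highest for the third. The lists also differ in brightness: 6 endothelial, 6 Kupffer and 1 stellate marker averaged above 8.26. That 1 was Lrat, at 0.22 on STZ-O replicate 3 against the mean of the others. The part of brightness in this contrast was not tested.

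The endothelial level averaged -0.077 ± 0.267 for STZ-O animals and 0.077 ± 0.102 for CB-O animals (SD, n = 3 each). They differed by -0.154, or by 0.001 without STZ-O replicate 3. Those of the Kupffer level were 0.012 ± 0.305 in STZ-O and -0.012 ± 0.032 in CB-O, a difference of 0.025, which was 0.2 without that array. Those of the stellate level were -0.012 ± 0.043 in STZ-O and 0.012 ± 0.104 in CB-O, a difference of -0.024. With all 6 arrays the endothelial difference was smaller than the SD within STZ-O, which replicate 3 widens, and larger than the SD within CB-O. The Kupffer and stellate differences were smaller than the SD within either group. With Lum left out as too dim, the stellate difference was -0.014. No p is given for these levels, since the members were chosen with earlier results known.

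The endothelial and Kupffer levels varied together across the 6 arrays, with a Pearson r of 0.83 and a Spearman rho of 0.77. With each group's mean removed, r was 0.96. The relation leaned on 1 animal: without STZ-O replicate 3, r was 0.16 over 5 arrays (rho 0.60), since STZ-O replicates 1 and 2 had the highest Kupffer levels and CB-O replicate 1 the highest endothelial level. Without the 2 arrays farthest from the median endothelial level (STZ-O replicate 3 and CB-O replicate 1), r over the other 4 was 0.94. The hepatocyte level varied with the endothelial level as closely, with r of 0.84 (rho 0.54), 0.86 with group means removed and 0.28 without STZ-O replicate 3. Between the Kupffer and hepatocyte levels r was 0.52 (rho 0.20), 0.84 with group means removed and -0.68 without that array. For the ligand list against the endothelial level r was 0.62 (rho 0.89), and 0.98 without it.

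The stellate level was tied to neither on all arrays, with r of 0.11 (rho 0.37) against the endothelial level and -0.26 (rho -0.09) against the Kupffer level. Here too single animals set the value. The endothelial and stellate r was 0.93 without STZ-O replicate 3 and -0.74 without CB-O replicate 1, and 0.59 without both, which are the 2 farthest on the endothelial level. The Kupffer and stellate r was -0.17 without STZ-O replicate 3, -0.61 without CB-O replicate 1, and 0.12 without the 2 farthest on the Kupffer level (STZ-O replicates 2 and 3). These points share the arrays and their normalisation, and all are descriptions of 6 animals.

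**Figure D3:**
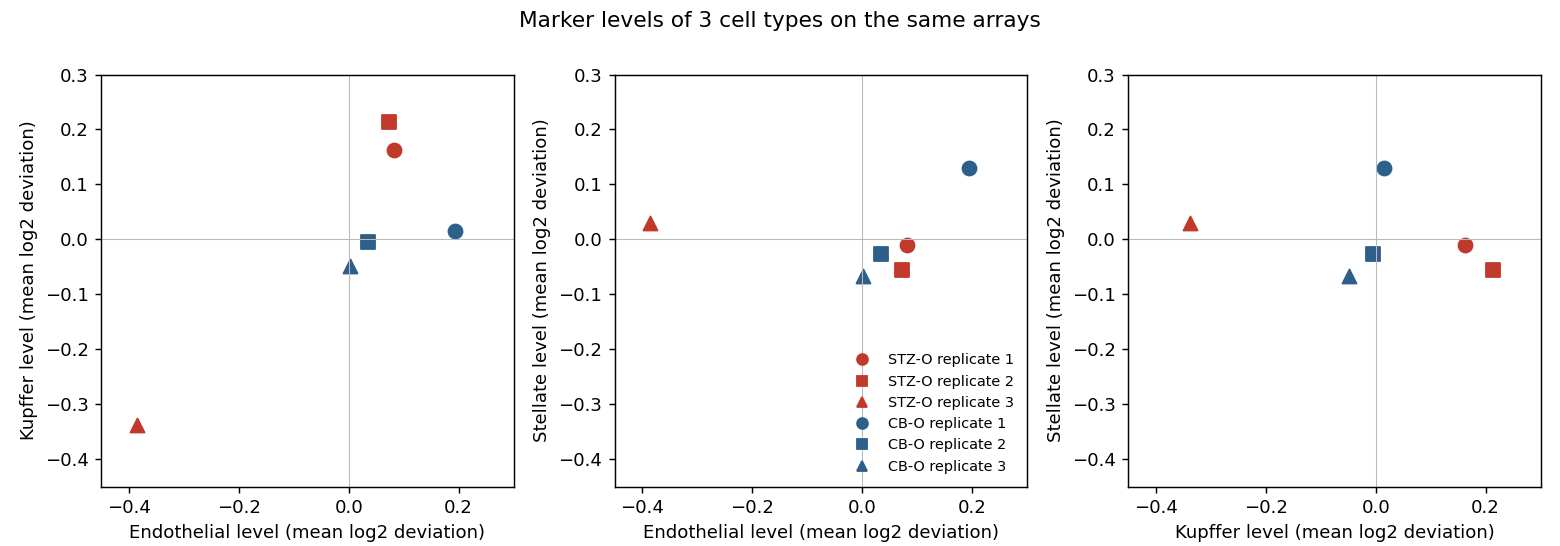
Each point is 1 liver array, placed by the mean log2 deviation of 12 markers of one cell type on the x axis and of another on the y axis, red for STZ-O and blue for CB-O, with the shape giving the replicate. In the left panel STZ-O replicate 3 lies at -0.386 and -0.338, away from the other 5 arrays, and in the other panels it lies at a stellate level of 0.029.

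Gene by gene the same held. The mean pairwise r over 6 arrays was 0.53 among the 66 pairs of endothelial markers, 0.45 among those of Kupffer markers and 0.31 among those of stellate markers, against 0.001 over all pairs of genes. Across types it was 0.41 for the 144 endothelial and Kupffer pairs, 0.02 for endothelial and stellate pairs and -0.15 for Kupffer and stellate pairs. Without STZ-O replicate 3 the values within types were 0.16, 0.36 and 0.39, and across types 0.02, 0.30 and -0.08. Eng and Cdh5 followed the rest of their list closely (r = 0.98 for each, or 0.97 and 0.93 without STZ-O replicate 3), as did Cd163 (0.98, or 0.93) and Pdgfrb (0.95, or 0.99). Clec4g (-0.25, or 0.14 without that array), Marco (-0.32, or -0.23), Acta2 (-0.52, or -0.84), Rgs5 (-0.02, or 0.07) and Flt1 (0.12, or -0.89) did not follow theirs. For Lyz2 (-0.19, or 0.44) and Tek (0.53, or -0.52) the sign turned with that array.

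STZ-O replicate 3 was left out because it was low in these very genes, which by itself moves them higher in STZ-O, so the counts that follow are a description and no support for a difference. With that array left out, all 12 Kupffer markers were higher in STZ-O, with a median of 0.213, where 48.4% of all genes were higher. In 6 of the 12 (Cd68, Cd163, Clec4f, Vsig4, Adgre1 and Cd5l) both remaining STZ-O livers exceeded every CB-O liver, against 9.76% of all genes. In that fit 5 of the 12 had an unadjusted p under 0.05 in limma, all higher, against 2.95% of all genes higher and 5.26% in either direction. They were Cd68 (0.30 ± 0.11), Cd163 (0.34 ± 0.07), Clec4f (0.22 ± 0.09), Adgre1 (0.34 ± 0.09) and Cd5l (0.37 ± 0.11, SE). The stellate gene Dcn was the 1 other member there, lower at -0.27 ± 0.10. After adjustment 0 members passed and 0.0% of all genes, the smallest adjusted p among members being 0.661. Kupffer markers share their macrophages and so are not separate observations, and the Kupffer level differed by 0.007 to 0.038 with any 1 CB-O array left out, and by -0.050 or -0.076 without STZ-O replicate 1 or 2.

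**Figure D4:**
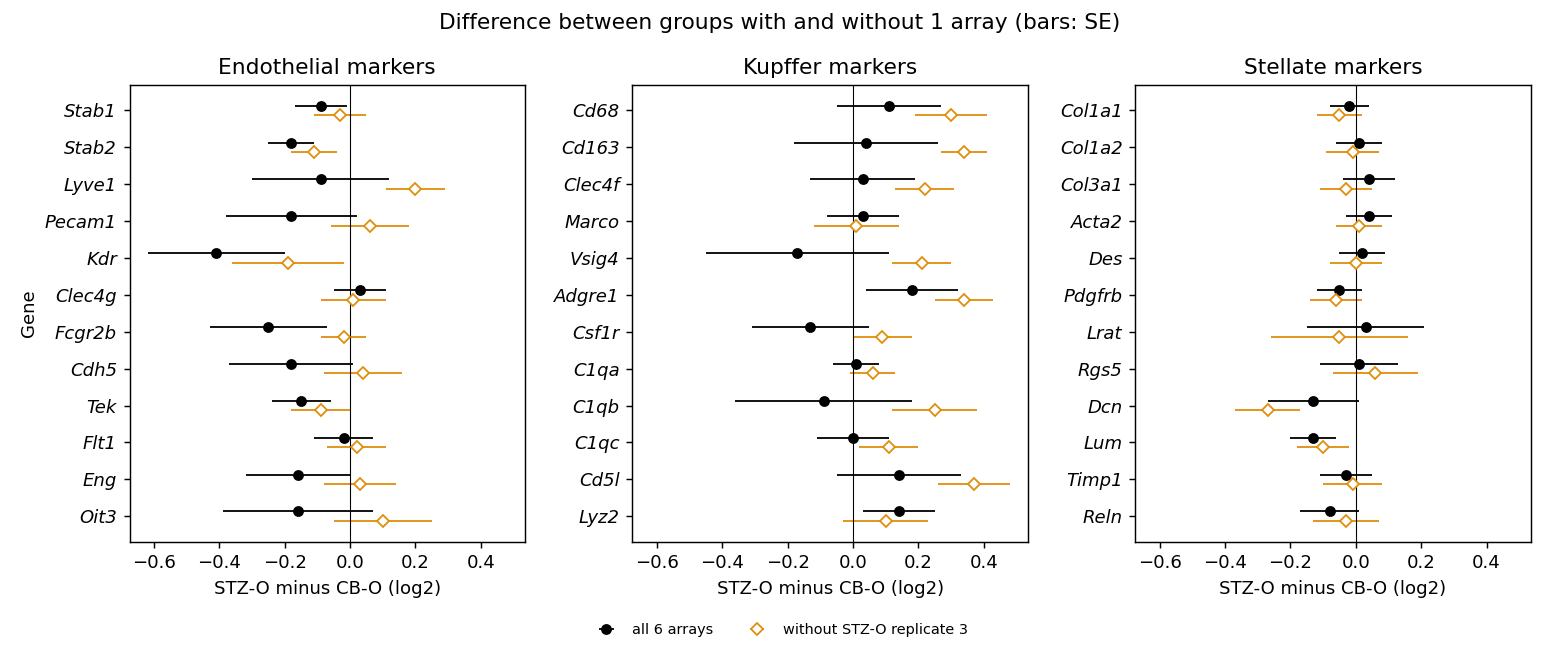
Points are the STZ-O minus CB-O difference of each marker in log2 units (x axis) with the moderated standard error as the bar, from all 6 arrays (black circles) and from 5 arrays without STZ-O replicate 3 (open orange diamonds). All 12 Kupffer markers are above 0 without that array, by up to 0.37 for Cd5l.

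Other genes of the same cells, from lists fixed with the members, behaved as follows. Of 22 further endothelial genes 19 were lower in STZ-O and 3 higher, with a median of -0.066 and a median of -0.017 without STZ-O replicate 3; 0 had an unadjusted limma p under 0.05. That array was the lowest of the 6 for 54.5% of them. Against the mean of the others they were at -1.05 to 0.16 there, with a median of -0.09. Only Ehd3, an endocytic recycling gene, at -1.05 and Mrc1, the mannose receptor, at -0.74 were more than 0.5 below. The 2 with the smallest p were the transcription factor genes Sox17 (-0.12 ± 0.06) and Gata4 (-0.13 ± 0.07, SE). Of 23 further macrophage genes 12 were higher and 11 lower (median 0.011). At an unadjusted p under 0.05 there were 2 (5.68% of all genes), both lower (2.48% of all genes): Cd14 (-0.31 ± 0.11), a co-receptor for endotoxin, and Mertk (-0.14 ± 0.06), a receptor for dying cells. STZ-O replicate 3 was the lowest array for 65.2% of these and 19.7% of all genes. Without it 19 of the 23 were higher, with a median of 0.086, and in 6 (Cybb, Spi1, Ctss, Laptm5, Fcer1g and Siglec1) both remaining STZ-O livers exceeded every CB-O liver, as they did in 9.76% of all genes.

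Of 25 further stellate and matrix genes 15 were higher and 10 lower (median 0.013). Timp2, another metalloproteinase inhibitor, was the 1 gene at an unadjusted limma p under 0.05 (0.20 ± 0.08, SE). Of all genes 5.68% passed that mark, 3.2% higher, so this count is near the background. Bambi, a pseudoreceptor that dampens TGF-beta signalling, was at -0.16 ± 0.07. STZ-O replicate 3 was the lowest array for 20.0% of this list. The 5 of these genes that averaged above 8.26 were below the mean of the other arrays there. They were Sparc (-0.21), Bgn (-0.20), Ecm1 (-0.17), Cxcl12 (-0.09) and Hgf (-0.02). Of 14 ligands of the member receptors 6 were higher and 8 lower, 0 at an unadjusted p under 0.05, the nearest being Gdf2, which encodes BMP9, the ligand of endoglin, at 0.17 ± 0.10, and Csf1 at -0.07 ± 0.07. In these 4 lists 0 genes passed the adjusted threshold in limma.

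Markers of other cells are given beside the low endothelial and Kupffer levels on STZ-O replicate 3. The hepatocyte level was 0.015, -0.030 and -0.092 in STZ-O and 0.046, 0.051 and 0.010 in CB-O, so replicate 3 of STZ-O was the lowest here too, by a smaller amount, and it was the lowest array for 4 of 11 hepatocyte markers. On that array the cholangiocyte, lymphocyte and red cell levels were 0.033, -0.030 and 0.000, each inside the range of the others, and so was the neutrophil and monocyte level (0.007). These lists are dim: 0 of 8 cholangiocyte, 0 of 11 lymphocyte, 0 of 12 neutrophil and monocyte and 1 of 6 red cell genes averaged above 8.26. RMA compresses differences of dim probe sets, so these levels do not show that those cells were unchanged on that array. With the hepatocyte level subtracted array by array, the endothelial and Kupffer r was 0.77. The endothelial difference was then -0.083 in place of -0.154, the Kupffer difference 0.096 in place of 0.025 and the stellate difference 0.047 in place of -0.024. The hepatocyte level that was subtracted differed by -0.071, while the median difference of its markers was -0.018. Serpina1 had the farthest difference of them and was the 1 hepatocyte marker not above 8.26 on average, at 7.84. The part of the hepatocyte level in the result was not tested beyond that subtraction. Among these lists the 2 genes nearest to a difference were Serpina1 (-0.38 ± 0.11, SE) and Apoa1 (-0.21 ± 0.11) for hepatocytes, and Epb42 (-0.14 ± 0.07) and Hba-a1 (-0.27 ± 0.15) for red cells. For cholangiocytes they were Epcam (0.11 ± 0.06) and Cldn4 (-0.13 ± 0.10), for lymphocytes Nkg7 (0.10 ± 0.06) and Cd79a (-0.15 ± 0.10), and for neutrophils and monocytes Itgam (0.10 ± 0.07) and Elane (0.05 ± 0.06). For portal fibroblasts and mesothelium they were Gas6 (0.17 ± 0.14) and Upk3b (-0.06 ± 0.07), and for fat, pancreas and muscle Prss1 (-0.08 ± 0.08) and Ckm (-0.05 ± 0.07). None of these passed the adjusted threshold, and Serpina1 alone among them had an unadjusted limma p under 0.05, as had 5.68% of all genes, 2.48% lower.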

How the data were processed

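Total RNA from 6 livers was hybridised to Affymetrix RTA-1_0 arrays, 1 per animal. The authors deposited log2 expression values for 70580 probe sets, made with Affymetrix Expression Console 1.4.1 and RMA per the submitters' processing notes; no parameters or build are named in the sources used here. RMA subtracts background, draws arrays to a common distribution and compresses differences of dim probe sets. Column medians lay between 5.77 and 5.82.

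Leaving out 1738 control probe sets left 68842, of which 23446 had 1 gene symbol, 505 several and 44891 none in the platform annotation. Where several probe sets named a gene, the brightest on average stood for it, which gave 22093 genes. Differences were tested with limma 3.58.1 in R 4.3.3 (two-sided, Benjamini-Hochberg over all genes, threshold 0.05), after a check on simulated data. The p-values measure the spread between 3 animals a group; the small number of arrays sets that precision. Members and lists were chosen with earlier results of these data known. All members are named; of other lists, the 2 genes with the smallest p, besides examples from the same cells chosen after their values were seen. Promoters came from RefSeq (GRCr8). Alternatives are in the closing section.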

Additional observations from a re-analysis of the deposited data

How the results depend on the processing

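With 3 animals a group, none of 12 alternative fits brought a member past the adjusted threshold in limma (0 in each; smallest adjusted p 0.661). The count at an unadjusted limma p under 0.05 was 1 on all arrays, where 5.68% of all genes passed. It was 2 with the replicate block (5.93% of all genes) and 0 with array weights (5.85%). With 1 array left out it was 0 to 6 (5.26% to 6.0% of all genes). The 6 were without STZ-O replicate 3 (5.26%), which was left out for being low in these very genes, so they do not support a difference. With 1 array left out the endothelial difference ranged from -0.233 to 0.001, the Kupffer one from -0.076 to 0.2 and the stellate one from -0.063 to 0.035. Dividing members by their SD changes the unit, to -0.642 for the endothelial and -0.173 for the stellate level. With 1 array left out r ranged from 0.16 to 0.93 (endothelial and Kupffer), -0.74 to 0.93 (endothelial and stellate) and -0.61 to -0.07 (Kupffer and stellate). Relative to hepatocyte markers the stellate r was -0.39 with the endothelial and -0.47 with the Kupffer level. The labels do not say whether the replicate numbers pair the animals. Deviations of same-numbered STZ-O and CB-O arrays correlated at 0.146, -0.175 and 0.1, and not every array correlated best with its own number. With 3 arrays a group these correlations cannot settle whether there was a pairing. The cause of the shifts between settings was not tested.

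The sign of the difference changed in 23 members when single arrays were dropped, in 12 members when that array was replicate 3 of STZ-O. The ranges were, among endothelial genes, Lyve1 -0.24 to 0.20, Pecam1 -0.32 to 0.06, Clec4g -0.03 to 0.12, Cdh5 -0.32 to 0.04, Flt1 -0.09 to 0.03, Eng -0.26 to 0.03 and Oit3 -0.32 to 0.10. Among Kupffer genes they were Cd68 -0.01 to 0.30, Cd163 -0.13 to 0.34, Clec4f -0.10 to 0.22, Marco -0.09 to 0.13, Vsig4 -0.42 to 0.21, Csf1r -0.25 to 0.09, C1qa -0.02 to 0.06, C1qb -0.26 to 0.25 and Cd5l -0.02 to 0.37. C1qc, whose difference on all arrays rounded to 0.00, was not counted and ranged from -0.11 to 0.11. Among stellate genes they were Col1a1 -0.05 to 0.02, Col1a2 -0.04 to 0.06, Col3a1 -0.03 to 0.08, Pdgfrb -0.08 to 0.01, Lrat -0.12 to 0.21, Rgs5 -0.11 to 0.08 and Timp1 -0.09 to 0.05. With all 6 arrays 4 members changed sign: Lyve1 (0.01) and C1qb (0.02) with array weights, and Clec4f (-0.01) and C1qa (-0.02) with quantile normalisation.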

Other observations

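STZ-O replicate 3 was more than 0.5 below the mean of the other 5 arrays for 128 genes, 11 of them endothelial or Kupffer members, where the other arrays had 44 to 124 such genes and 0 members. The genes named next were chosen after their values were seen, and none is a member. Other genes of sinusoidal endothelium were among the 128: Dnase1l3, a secreted DNase, was at 8.53 on that array against 9.05 to 9.67 on the other 5, and Adgrf5, an adhesion receptor, at 8.45 against 9.03 to 9.22. Ptgs1, the cyclooxygenase 1 gene, was at -0.66 against the mean of the others and Clec1b, a C-type lectin, at -0.53.

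Genes of macrophages lay beside them. Cd4, which rat macrophages carry as well as T cells, was at 7.29 on STZ-O replicate 3 against 7.98 to 8.67 on the other arrays, and the adhesion receptor gene Adgre4 was at 6.20 against 6.78 to 7.45. P2ry13 and Ms4a6a were at -0.75 and -0.60 against the mean of the others, and Cfp, which encodes the complement regulator properdin, at -0.53. The same array also held genes that mark neither cell type: the metallothionein Mt1m at -1.43, the sterol synthesis genes Sqle at -1.12 and Msmo1 at -1.06, and, on the high side, Jun at 1.36 and Pdk4 at 1.31. Whether these belong with the low endothelial and Kupffer markers was not tested.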
